A study of Mus musculus with 27 samples.

Results

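Polyadenylated RNA bound to chromatin was compared between a mouse neural progenitor line (mNPC) and mouse embryonic stem cells (mESC). The comparison uses 6 of the 27 libraries of the study, namely the 3 chromatin libraries of each cell type, which were chosen by the cell type and fraction in their labels. The mESC were the E14 line, grown on gelatin with LIF. The mNPC, called mNPC_C2 in the labels, were established as a line by the submitters and kept without LIF in DMEM/F12 with B27 lacking vitamin A and daily EGF and FGF at 10.0 ng/ml. No genotype, allele or age is given for either line, and the cells from which the mNPC line was derived are not stated in the labels. Line, medium and cell state therefore change together in this comparison and cannot be told apart. The other libraries hold nucleoplasm and cytoplasm of the same lines and all 3 fractions of primary cortical neurons after 5 days in culture. Each group has 3 biological replicates. RNA above 200 nt was used for stranded libraries with paired reads of 100 bp.

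A fractionated nucleus gives up its soluble RNA as nucleoplasm, and the RNA that stays with the pellet is called chromatin-associated. In polyadenylated RNA this fraction holds transcripts that are finished but not yet released, transcripts that keep introns, and nuclear noncoding RNAs such as Xist and Malat1. Mouse stem cells in LIF run a network of transcription factors around Pou5f1, Nanog and Esrrb, whereas neural progenitors expanded with EGF and FGF resemble radial glia and rely on Sox, Olig and Notch effector genes for their identity and self-renewal.

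The chromatin libraries held between 12073063 and 18959333 counts. The mNPC replicates were closer to each other than the mESC replicates were. The median absolute log2 difference between replicates was 0.164 to 0.199 in mNPC and 0.267 to 0.465 in mESC, where replicates 1 and 3 lay farthest apart. Of 18226 genes tested, 4616 (25.3%) were called higher and 5817 (31.9%) lower in mNPC, at an adjusted p under 0.05 and a fold change of at least 2. Changes of at least 32-fold were fitted for 678 genes that rose and 1640 that fell. The 3 libraries of one line lay above all 3 of the other for 98.1% of the called genes and for 77.5% of all genes tested. The median log2 fold change over all genes tested was -0.14. It moved to -0.29 with another set of size factors (RLE) and to -0.21 with library totals, so values near 0 depend on the scaling. In the deposited TPM it was -0.01, but over another set of 36074 genes and with 1 added to each TPM. That shift is therefore not one of scaling alone. Levels below are CPM, read counts scaled to the TMM-adjusted library size. They are relative to the RNA of the fraction, and in these bulk samples fewer cells of a type and less RNA per cell cannot be told apart.

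**Figure D1:**
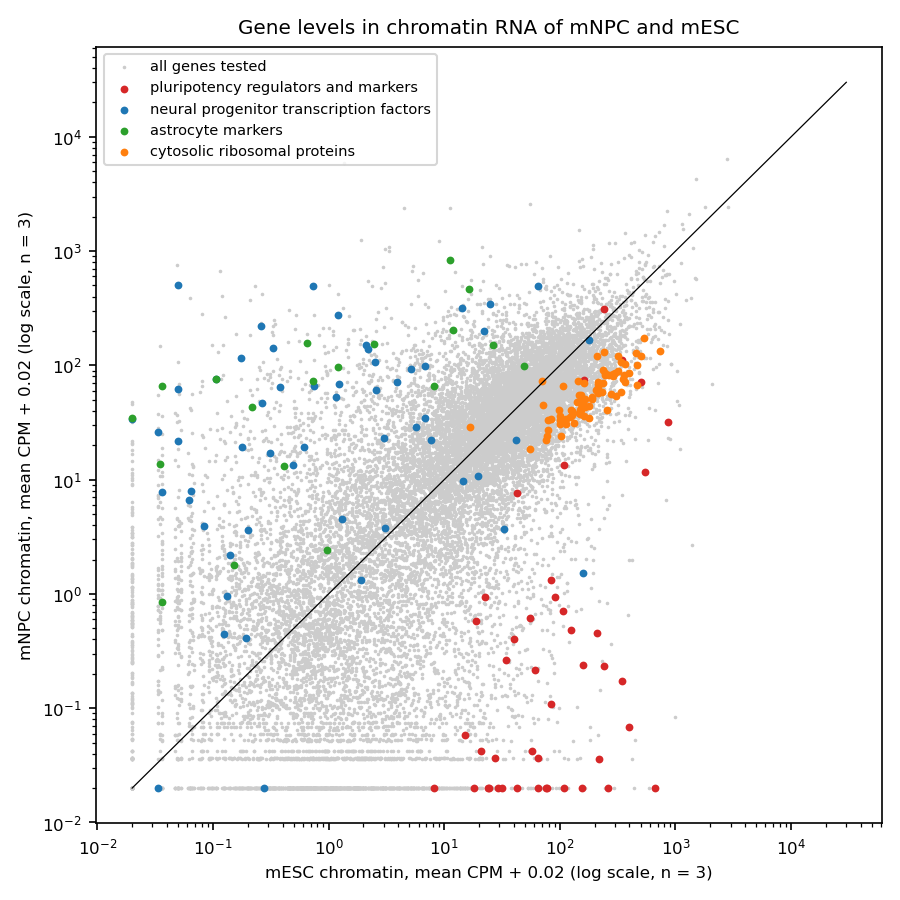
Mean CPM of each gene in mESC chromatin (horizontal axis) against mNPC chromatin (vertical axis), both on log scales with 0.02 CPM added and n = 3 libraries per line. Grey points are all 18226 genes tested, and coloured points are the lists of pluripotency, neural progenitor factor, astrocyte and ribosomal protein genes. Most of the pluripotency list lies below the diagonal, and the astrocyte markers lie above it.

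Both lines carried the markers of their labels. Of 44 pluripotency regulators and markers, 43 were lower in mNPC chromatin and none was higher, with a median log2 fold change of -9.87, or -8.80 when the 14 genes without a count in mNPC are set at their bound. The remaining member, Jam2, did not pass the test (log2 fold change 0.38 ± 0.30 (SE), adjusted p = 0.253). The summed level of the list was 619 to 655 CPM in mNPC and 6383 to 7312 CPM in mESC. In the opposite direction, 44 of 55 tested neural progenitor transcription factors of 60 listed and 29 of 37 radial glia and progenitor markers were higher in mNPC, against 25.3% of all genes. The summed level of the radial glia markers was 15518 to 16867 CPM in mNPC and 1069 to 1128 CPM in mESC. Sox2, a factor used by both cell states, stood at 167 ± 27.2 CPM in mNPC and 180 ± 21.5 CPM in mESC (SD, n = 3), with a log2 fold change of -0.10 ± 0.12 (SE) and adjusted p = 0.454.

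Zfp42, also known as Rex1, is a zinc finger gene used as a marker of naive stem cells (chromosome 8, 43295068 to 43307009, - strand, mm10). It stood at 753, 633 and 621 CPM in the mESC libraries and had 0 counts in each mNPC library. Against the 3 counts that a group at 0 allows over its libraries, it was at least 12434-fold lower. Pou5f1, the POU factor at the centre of the stem cell network (chromosome 17, 35506037 to 35510776, + strand), was at 85.6, 97.7 and 142 CPM in mESC and also had no count in mNPC, a difference of at least 2030-fold. Every mESC library thus held both genes and no mNPC library held either. Nanog, its partner, was at 0.918 ± 0.527 CPM in mNPC and 90.4 ± 11.7 CPM in mESC, and Esrrb, an orphan nuclear receptor, at 0.213 ± 0.020 CPM and 243 ± 74.1 CPM (SD, n = 3). Other genes without a count in mNPC were Dppa4, at least 4933-fold lower, L1td1, an RNA-binding protein, at least 2913-fold lower, and Fgf4, the growth factor that stem cells secrete, at least 1441-fold lower. The neighbouring genes Triml1 and Triml2, which lie close to Zfp42 on chromosome 8, were at 586 ± 102 CPM and 435 ± 81.2 CPM in mESC and had no count in mNPC. Some regulators of the list kept a measurable level. Mybl2, a cell cycle transcription factor, was at 31.7 ± 3.82 CPM in mNPC and 863 ± 116 CPM in mESC, and Rif1, a replication timing factor, at 71.9 ± 10.9 CPM and 505 ± 105 CPM, with log2 fold changes of -4.77 ± 0.22 and -2.81 ± 0.21 (SE). The long noncoding RNA Lncenc1, which is abundant in embryonic stem cells, fell from 1042, 918 and 990 CPM to 0.0502, 0.141 and 0 CPM, with a log2 fold change of -13.62 ± 0.33 (SE) and adjusted p = 1.18e-21.

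The octamer ATTTGCAT, the letters bound by POU factors, was searched on both strands (ATGCAAAT on the other) in RefSeq promoters of build GRCm38.p6, from 250 bases before to 50 bases after a gene start. It was found in 3 of 32 promoters of the pluripotency list (9.38%), those of Spp1, Zfp296 and Zfp42, and in 1.74% of 32851 promoters and 1.34% of 16212 promoters of tested genes. The Zfp42 promoter (chr8:43306960-43307259, - strand) is shown since this gene had the largest fitted fall among the named genes, with the octamer in capitals.
Zfp42 promoter: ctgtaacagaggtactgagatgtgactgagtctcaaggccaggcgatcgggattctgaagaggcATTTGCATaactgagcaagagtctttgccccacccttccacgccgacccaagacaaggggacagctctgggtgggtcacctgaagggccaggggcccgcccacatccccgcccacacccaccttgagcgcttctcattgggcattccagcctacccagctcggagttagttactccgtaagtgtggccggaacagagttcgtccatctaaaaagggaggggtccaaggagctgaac

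The stem cell microRNA cluster on chromosome 7 fell with the pluripotency genes. MicroRNAs silence mRNAs that match their seed (bases 2 to 8), and the miR-290 to miR-295 cluster is known for promoting the rapid cell cycle of stem cells. The reads measure the polyadenylated primary transcript across each locus, since RNA under 200 nt was removed. All 7 loci of the cluster that were tested had 0 counts in mNPC. In mESC Mir295 stood at 105, 91.3 and 62.5 CPM, Mir294 at 65.3, 51.9 and 50.1 CPM and Mir293 at 47.8, 42.9 and 36.1 CPM, which makes them at least 1606-fold, 1035-fold and 787-fold lower in mNPC. The sequences below are 5 mature 3' arms of the cluster in RefSeq (GRCm38.p6, + strand), shown since 3 of them share 1 seed and the other pair differs from it in the last seed base, with the seed in capitals. The 3' arm miR-293-3p has another seed, GUGCCGC, and is not shown. miR-291a-3p lies at chr7:3218968-3218989, miR-294-3p at chr7:3220691-3220712, miR-295-3p at chr7:3220815-3220837, miR-290a-3p at chr7:3218674-3218697 and miR-291b-3p at chr7:3219529-3219550. The miR-9-5p and let-7b-5p sequences that follow come from loci that rose in mNPC.
miR-291a-3p: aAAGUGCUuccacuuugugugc
miR-294-3p: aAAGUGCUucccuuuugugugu
miR-295-3p: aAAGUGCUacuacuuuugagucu
miR-290a-3p: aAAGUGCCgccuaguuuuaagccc
miR-291b-3p: aAAGUGCAuccauuuuguuugu
miR-9-5p: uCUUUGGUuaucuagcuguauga
let-7b-5p: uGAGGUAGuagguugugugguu

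miR-9 is a brain microRNA and let-7b a member of the family that accumulates as cells differentiate. C130071C03Rik, the transcript that holds Mir9-2 (mature sequence at chr13:83738821-83738843, + strand), was at 430, 457 and 387 CPM in mNPC and 0.0974, 0.285 and 0.358 CPM in mESC, a log2 fold change of 10.68 ± 0.32 (SE) with adjusted p = 3.32e-20. The Mir9-2 locus itself had 98 counts in mNPC and 0 in mESC, and Mirlet7b (mature sequence at chr15:85707325-85707346, + strand) had 172 counts in mNPC and 5 in mESC. Mir99ahg, a host of let-7c and miR-99a, was at 28.5 ± 0.658 CPM in mNPC and had 1 count in mESC, a 1916-fold ratio with a counting interval of 343 to 75739. Mir17hg, host of the oncogenic miR-17 cluster, went the other way, from 201 ± 39.3 CPM in mESC to 16.6 ± 2.05 CPM in mNPC. Of 24 tested loci and hosts of 51 in the count table, 6 were higher and 15 lower, and in TPM 3 and 3 of 10. The count-based shares were 25% and 62.5%, against 25.3% and 31.9% of all genes. Reads in a microRNA locus and its host cannot be assigned to either alone.

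Among neural progenitor regulators, the basic helix-loop-helix factor Olig2, which keeps ventral and glial progenitors dividing (chromosome 16, 91225550 to 91228677, + strand), was at 500, 458 and 559 CPM in mNPC and had 2 counts over the mESC libraries. That ratio is 16861-fold, with a counting interval of 4667 to 139230. Its neighbour Olig1 was at 222 ± 11 CPM and 0.240 ± 0.075 CPM. Both genes were thus high in every mNPC library and near 0 in every mESC library. Sox8, of the glial SoxE group, was at 538, 523 and 428 CPM in mNPC and 0.341, 0.693 and 1.12 CPM in mESC (log2 fold change 9.41 ± 0.27 (SE), adjusted p = 1.37e-20). Nr2e1, the nuclear receptor known as Tlx that maintains adult neural stem cells, was at 34.8, 36.8 and 31.0 CPM in mNPC with no count in mESC, at least 776-fold higher. Pou3f2, a neural POU factor, was at 62.1 ± 6.62 CPM against 2 counts, and Pax6, of cortical radial glia, at 93.0 ± 3.63 CPM against 5.12 ± 2.30 CPM. Fewer members went down. Gli1, a target and effector of Hedgehog signalling, fell from 146, 159 and 167 CPM to 1.31, 0.99 and 2.21 CPM, Hmga2, a chromatin protein of young progenitors, fell from 32.8 ± 8.16 CPM to 3.69 ± 0.639 CPM, and Emx1 made the third (5 fell at a minimum of 1 CPM in 3 libraries). Of 39 Hox genes listed, 4 were tested, and all 4 were lower in mNPC, where together they reached at most 0.067 CPM in a library. This count rests on few reads and on the filter, since 2 were tested and lower at a minimum of 1 CPM in 3 libraries, 1 with the compared libraries fitted alone, and 1 of 4 was lower in TPM.

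Radial glia genes had some of the widest gaps. Fabp7, the brain lipid-binding protein of radial glia (chromosome 10, 57784881 to 57788450, + strand), was at 378, 355 and 437 CPM in mNPC and had 3 counts in mESC. Ptprz1, a receptor phosphatase of progenitors, was at 2172, 2646 and 2344 CPM in mNPC and 3.75, 4.40 and 5.32 CPM in mESC (log2 fold change 9.05 ± 0.23 (SE), adjusted p = 1.49e-21). Bcan, which encodes brevican of the brain matrix, was at 2486, 1931 and 2695 CPM against 9.16, 14.8 and 9.93 CPM. None of these 3 genes overlapped between the lines, as was the case for 98.1% of called genes and 77.5% of all genes tested. The intermediate filament genes Nes and Vim, both progenitor markers, had smaller ratios, with 344 ± 44.5 CPM against 20.6 ± 8.94 CPM for Nes and 347 ± 42.4 CPM against 28.3 ± 4.15 CPM for Vim.

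Astrocyte and early oligodendrocyte markers rose along with the progenitor genes. All 19 tested astrocyte markers of 20 listed were higher in mNPC, with a median log2 fold change of 5.98 and a summed level of 2405 to 2720 CPM against 101 to 174 CPM. Other count-based settings gave 18 or 19, and TPM gave 17. Aqp4, the water channel of astrocyte end-feet, was at 38.1, 32.4 and 33.6 CPM with no count in mESC, at least 780-fold higher. Sox9, the glial competence factor, was at 76.1 ± 2.29 CPM in mNPC and 0.0868 ± 0.0821 CPM in mESC. Gfap, the astrocyte filament protein, was at 97.0 ± 53.4 CPM and 1.20 ± 0.308 CPM, with a wide spread between the mNPC libraries. In the oligodendrocyte lineage 12 of 19 tested markers were higher and 5 lower (3 lower in TPM). The shares were 63.2% and 26.3%, against 25.3% and 31.9% of all genes. The higher ones included the precursor genes Pdgfra, at 159, 145 and 120 CPM against 5.55, 3.18 and 7.47 CPM, and Cspg4, which encodes NG2, at 158 ± 20.8 CPM against 1.44 ± 0.513 CPM. Gpr17, a receptor of committed precursors, was at 59.4, 43.2 and 34.8 CPM and had no count in mESC. Myrf, needed for myelin gene expression, was lower, at 4.90 ± 0.666 CPM in mNPC and 142 ± 77.4 CPM in mESC.

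Markers of other cells that a culture could hold were low or mixed. Of 38 postmitotic neuron markers 14 were higher (36.8%) and 13 lower (34.2%), against 25.3% and 31.9% of all genes. Their median was 0.00, and their summed level was 1516 to 1664 CPM in mNPC and 441 to 478 CPM in mESC. Map2, a dendritic microtubule protein, made up most of that level in mNPC, at 1080, 1181 and 1004 CPM against 16, 24.7 and 23.2 CPM. Stmn2, of growing axons, was at 104, 71.8 and 56.3 CPM in mESC and had 1 count in mNPC, and Rbfox3, which encodes the neuronal antigen NeuN, was at 1.86 ± 0.284 CPM in mNPC and 5.34 ± 1.56 CPM in mESC. None of the 15 microglia, 10 endothelial and 13 fibroblast or mural markers tested rose, except 2 of the last list. Their summed levels were 67.4 to 78.6, 4.89 to 5.84 and 12.5 to 18.5 CPM in mNPC, and 122 to 144, 161 to 227 and 25.2 to 45.2 CPM in mESC. Pecam1, an adhesion receptor of endothelium that stem cells also carry, accounted for much of the endothelial level, at 150, 112 and 87.9 CPM in mESC and 1.15, 0.471 and 0.670 CPM in mNPC. Of 16 tested markers of primitive endoderm, mesoderm and trophoblast 13 were lower in mNPC (8 in TPM), among them Tfap2c, a trophoblast and germ cell factor, at 37.9 ± 8.42 CPM in mESC with no count in mNPC. The summed level of that list was nevertheless 147 to 181 CPM in mNPC and 108 to 131 CPM in mESC, since Pdgfra, also an oligodendrocyte precursor gene, is a member. The part of other cells in these results was not tested.

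**Figure D2:**
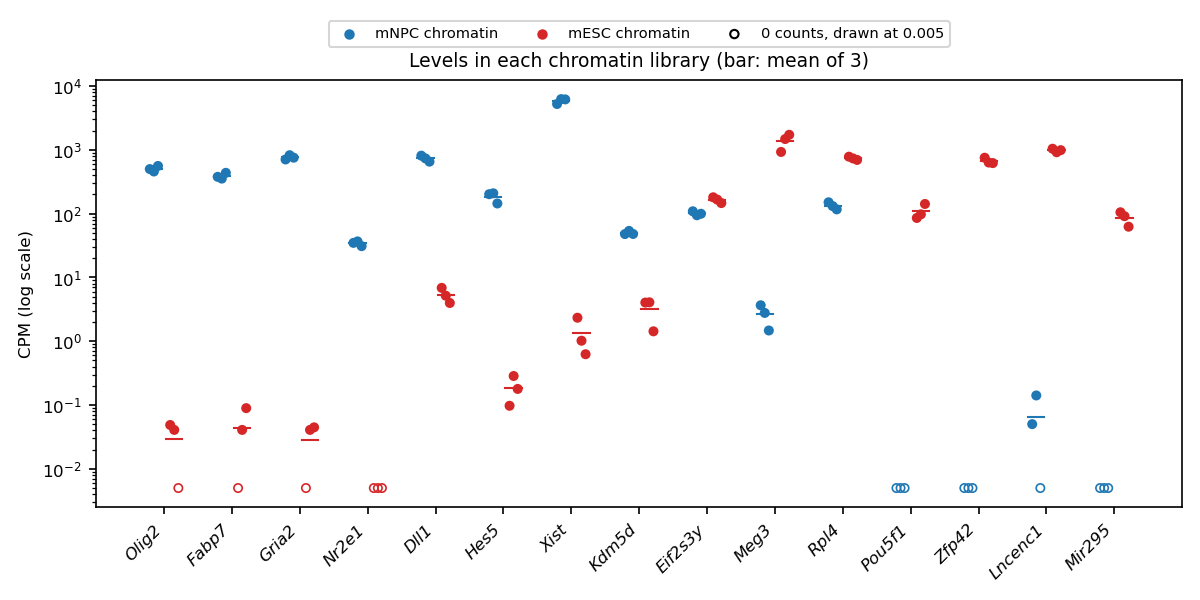
CPM in each chromatin library on a log scale for selected genes, with mNPC and mESC in separate colours and a bar at the mean of 3 libraries. Open points are libraries with 0 counts. Zfp42 and Pou5f1 have no count in mNPC, and Olig2, Fabp7 and Xist sit orders of magnitude higher in mNPC than in mESC.

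Signalling genes were split between ligands, receptors and targets. In the Notch pathway, a ligand on one cell activates a receptor on its neighbour, whose freed intracellular part joins Rbpj to turn on Hes and Hey repressors. Of its 40 genes 21 were higher and 5 lower in mNPC chromatin, with a median log2 fold change of 1.31 against -0.14 over all genes. Among ligands, Dll1 (chromosome 17, 15367354 to 15376872, - strand) stood at 811, 736 and 654 CPM in mNPC and 6.87, 5.18 and 3.98 CPM in mESC, a log2 fold change of 7.10 ± 0.31 (SE) with adjusted p = 6.20e-17. Dll3, an inhibitory ligand, was at 190 ± 37.2 CPM against 7.25 ± 2.28 CPM. Jag2 went the opposite way, at 4.12, 3.20 and 4.96 CPM in mNPC and 145, 142 and 151 CPM in mESC (log2 fold change -5.17 ± 0.19 (SE)). The ligands thus differed in direction, and Jag1 did not reach a 2-fold difference (log2 fold change 0.43 ± 0.17). Among receptors, Notch1 (chromosome 2, 26457903 to 26516663, - strand) was at 731, 746 and 831 CPM in mNPC and 62.3, 49.1 and 42.1 CPM in mESC, with adjusted p = 5.77e-16. Notch2 and Notch3 were also higher, by 1.99 ± 0.21 and 2.01 ± 0.17 on the log2 scale, and Notch4 was lower, at -4.62 ± 0.30.

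The Hes and Hey genes named here were higher in mNPC. Hes5, the main effector in neural stem cells, was at 202, 209 and 144 CPM in mNPC and 0.0974, 0.285 and 0.179 CPM in mESC (log2 fold change 9.86 ± 0.34 (SE), adjusted p = 4.18e-19). Hey1 was at 38.6 ± 2.08 CPM against 1.11 ± 0.082 CPM and Nrarp, a feedback inhibitor, at 74.2 ± 14.2 CPM against 2.32 ± 0.583 CPM, and both passed the test. Hes1, which stem cells also use, had the smallest change of the called Hes and Hey genes, from 6.68 ± 1.22 CPM to 17.6 ± 1.16 CPM. Lfng, the glycosyltransferase that tunes receptors towards Delta ligands, was at 186 ± 19.8 CPM against 4.84 ± 0.627 CPM. Rbpj, the DNA-binding partner itself, was lower in mNPC, at 49.4, 52.6 and 48.6 CPM against 173, 188 and 223 CPM, with a log2 fold change of -1.96 ± 0.13 (SE). The receptor-cleaving subunits of gamma-secretase showed smaller differences. Ncstn rose by 1.37 ± 0.15 on the log2 scale and the protease Adam10 by 1.86 ± 0.19, while Psen2, Psenen and Aph1a stayed under a 2-fold change. The core of the Rbpj motif, TGGGAA with TTCCCA on the other strand, occurred in 10 of 41 promoters of the list (24.39%) and in 25.56% of all 32851 promoters, so its share in the list was near that of all promoters. The Hes5 promoter (RefSeq, GRCm38.p6, chr4:154960673-154960972, + strand) is shown since Hes5 had the largest fitted change of the pathway and holds the core on both strands, in capitals.
Hes5 promoter: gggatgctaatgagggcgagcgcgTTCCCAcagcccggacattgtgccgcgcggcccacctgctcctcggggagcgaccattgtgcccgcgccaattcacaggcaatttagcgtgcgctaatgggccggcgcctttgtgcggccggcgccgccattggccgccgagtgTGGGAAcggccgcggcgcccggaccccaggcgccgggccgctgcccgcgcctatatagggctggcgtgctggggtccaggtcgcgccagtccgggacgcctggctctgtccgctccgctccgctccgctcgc

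**Figure D3:**
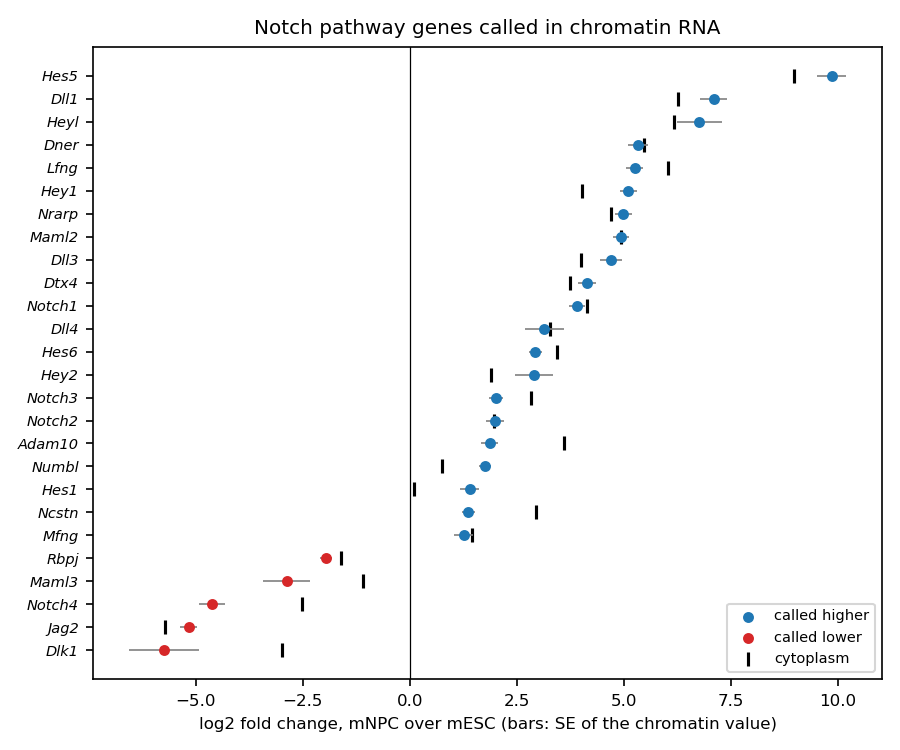
Log2 fold change of mNPC over mESC for the 21 Notch pathway genes called higher and the 5 called lower, with points for chromatin coloured by call, horizontal bars for the SE and vertical ticks for cytoplasm. Hes5 and Dll1 lie farthest to the right and Dlk1, Jag2 and Notch4 farthest to the left.

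Receptors of the EGF and FGF families differed in direction. Egfr was at 584, 616 and 488 CPM in mNPC and 7.40, 5.99 and 4.43 CPM in mESC, with a log2 fold change of 6.57 ± 0.28 (SE) and adjusted p = 2.90e-17. Fgfr3 was at 788, 883 and 819 CPM against 8.13, 8.32 and 17.2 CPM, and Erbb4, a neuregulin receptor, at 69.9 ± 2.99 CPM against 0.301 ± 0.174 CPM. Erbb3 and Fgfr4 moved the other way, at 0.759 ± 0.244 CPM and 0.771 ± 0.208 CPM in mNPC and 40.5 ± 12.4 CPM and 16.6 ± 3.30 CPM in mESC. Fgfr1 stayed just short of a 2-fold change, with a log2 fold change of 0.99 ± 0.14. Of the 47 genes of EGF and FGF signalling 13 were higher and 13 lower (27.7% each, near the 25.3% and 31.9% of all genes), with a median of -0.19. With RLE size factors or DESeq2 10 were higher and 15 lower, and in TPM the median was 0.08. Fgfr2 had a count-based log2 fold change of -0.14 ± 0.12, but its counted span overlaps other genes of the same strand, and in the deposited TPM it was at 108 ± 17.0 in mNPC and 19 ± 8.45 in mESC. In the LIF pathway 6 of 26 genes were higher and 12 lower (23.1% and 46.2%, against 25.3% and 31.9% of all genes). The kinase Jak2 was at 189, 213 and 169 CPM in mNPC and 11.6, 6.65 and 6.80 CPM in mESC, and Stat3, the factor it activates, at 248 ± 21.4 CPM against 102 ± 17.0 CPM. Several targets and feedback genes were lower, but not all. Socs2 fell from 94.9 ± 7.03 CPM to 1.40 ± 0.536 CPM and Bcl3 from 38.1 ± 22.9 CPM to 0.434 ± 0.119 CPM. The feedback inhibitor Socs1 (log2 fold change -0.36 ± 0.41) and the kinase Pim2 (0.58 ± 0.21) were not called, and the inhibitor Pias1 rose by 1.30 ± 0.12. The receptor Lifr stood at 159 ± 12.2 CPM in mNPC and 214 ± 27.9 CPM in mESC and did not reach a 2-fold change.

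Xist, the RNA that coats and silences an X chromosome (chromosome X, 103460375 to 103483217, - strand), was at 5237, 6244.5 and 6183 CPM in mNPC chromatin and 2.34, 1.02 and 0.626 CPM in mESC chromatin. The log2 fold change was 12.13 ± 0.94 (SE) with adjusted p = 7.66e-11. In the mNPC line it stood at 72.4 ± 11.1 CPM in cytoplasm and 95.4 ± 28.0 CPM in nucleoplasm, so chromatin held its highest level. Its antisense partner Tsix was lower in mNPC, at 8.96 ± 1.77 CPM against 46.1 ± 2.59 CPM, and Rlim, an activator of Xist, was at 40.5 ± 3.15 CPM against 204 ± 45.9 CPM. Y-linked genes were measured in the same mNPC libraries. Eif2s3y was at 109, 94.4 and 99.7 CPM in mNPC and 181, 166 and 147 CPM in mESC, Ddx3y at 45.4, 45.7 and 46.1 CPM against 70.4, 89.6 and 97.1 CPM, and Kdm5d at 47.9, 53.7 and 48.1 CPM against 4.04, 4.08 and 1.43 CPM. Kdm5d, a histone H3K4 demethylase, was the 1 of 7 tested Y-linked genes that rose, and 4 fell (2 in TPM). Zfy1 and Usp9y, both among those that fell, had no count in mNPC, and Zfy1 varied widely between the mESC libraries at 41.7, 16.3 and 2.91 CPM. Whether Xist and Y-linked RNA came from the same cells was not tested. The median log2 fold change of 682 X-linked genes was -0.01. Of 15 X-linked genes of the inactivation centre or known to escape it 4 were higher and 5 lower. These shares (26.7% and 33.3%) were near the 25.3% and 31.9% of all genes. Kdm6a, an escape gene, was at 152 ± 7.03 CPM against 71.0 ± 3.59 CPM, a call that was lost under RLE size factors, DESeq2 and both other filters, where its log2 fold change was as low as 0.93.

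Of 24 genes that write, erase or read DNA methylation, 11 were lower in mNPC (45.8%, against 31.9% of all genes). Another 7 were higher (29.2%, near the 25.3% of all genes). Dnmt3l, the cofactor of de novo methylation, was at 79.4, 62.5 and 88.3 CPM in mESC and had no count in mNPC, at least 1424-fold lower. Tet1, which oxidises methylcytosine, fell from 851, 1068 and 1150 CPM to 39.4, 49.7 and 57.2 CPM, with a log2 fold change of -4.39 ± 0.23 (SE) and adjusted p = 1.99e-15. Tet3, its paralogue, went up from 20.3 ± 3.99 CPM to 94.8 ± 11.1 CPM, while Tet2 had a log2 fold change of -0.29 ± 0.19 and adjusted p = 0.170. Tet1 and Tet3 therefore differed in direction. Dnmt3b fell by 3.17 ± 0.33 on the log2 scale, Dnmt3a had 0.31 ± 0.27 and did not pass, and Dnmt1 sat near the 2-fold limit at -1.03 ± 0.17. The call of Dnmt1 was lost in TPM (-0.77), without mESC replicate 3 (-0.93), without mNPC replicate 1, and without mitochondrial, Xist and Y-linked genes.

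Subunits of the Polycomb and BAF complexes changed in both directions. Among 38 Polycomb genes 13 were lower (34.2%, near the 31.9% of all genes) and 6 higher (15.8% against 25.3%), and their median of -0.34 was 0.15 in TPM. Cbx7, a reader of histone H3K27 methylation, was at 37.0 ± 4.44 CPM in mNPC and 399 ± 77.1 CPM in mESC. The PCGF subunits were split. Bmi1, also called Pcgf4, was at 101, 109 and 90.1 CPM against 6.19, 4.93 and 3.94 CPM, and Pcgf2 at 22.3 ± 2.97 CPM against 254 ± 66.3 CPM. BAF complexes slide nucleosomes, and 10 of their 29 genes were higher and 2 lower. Smarca2, the alternative ATPase, was at 93.9, 85.8 and 94.0 CPM in mNPC and 2.24, 1.67 and 2.06 CPM in mESC, a log2 fold change of 5.52 ± 0.16 (SE) with adjusted p = 2.69e-20, whereas Smarca4, the main ATPase of stem cells, had 0.45 ± 0.25 with adjusted p = 0.103. Smarcd3 and Dpf3 were also higher, by 4.64 ± 0.15 and 4.47 ± 0.24, and Smarcc1, of the stem cell complex, was lower at -1.22 ± 0.21, a call that was lost without mESC replicate 3 and in TPM.

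Nuclear and chromatin-bound long noncoding RNAs, a list that includes Xist and Lncenc1, changed in both directions, with 9 of 27 tested higher and 17 lower (11 lower in TPM). The shares were 33.3% and 63%, against 25.3% and 31.9% of all genes. Malat1, of nuclear speckles, was at 3723, 3990 and 5032 CPM in mNPC and 1828, 1232 and 1476 CPM in mESC, a log2 fold change of 1.49 ± 0.21 (SE) with adjusted p = 3.58e-07. Neat1, of paraspeckles, was at 23.4 ± 7.64 CPM against 864 ± 297 CPM. Meg3, an imprinted RNA of chromosome 12 (109541001 to 109571726, + strand), fell from 928, 1478 and 1724 CPM to 3.67, 2.78 and 1.47 CPM (log2 fold change -8.99 ± 0.43 (SE), adjusted p = 3.74e-16). Among 46 tested imprinted genes 13 were higher (28.3%, near the 25.3% of all genes) and 18 lower (39.1%, against 31.9%). Nnat, a small membrane protein of developing brain, rose from 3.56, 11.7 and 11.8 CPM to 1477, 1121 and 1049 CPM, and Zdbf2, whose expression depends on early embryonic transcription, fell from 278 ± 127 CPM to 0.342 ± 0.123 CPM. Germline genes, which stem cells transcribe at low levels, were lower for 34 of 42 tested (81%). Their median was -6.37, or -5.75 with genes at 0 set at their bound. Hormad2, a meiotic chromosome protein, was at 136, 90.8 and 68.5 CPM in mESC with 1 count in mNPC. Genes of the 2-cell stage such as Zscan4d were lower for 11 of 12 tested (91.7%), at levels of 6.08 to 20.7 CPM in sum in mESC. The number lower was 7 in TPM or when at least 1 CPM in 3 libraries was required, and 6 with the compared libraries fitted alone.

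Surface and matrix genes also changed in both directions. Of 45 adhesion genes 18 were higher (40%) and 24 lower (53.3%), against 25.3% and 31.9% of all genes. The tight junction claudins Cldn4 and Cldn6 were at 65.2, 41.1 and 36.1 CPM and at 25.6, 30.1 and 28.0 CPM in mESC, and neither had a count in mNPC. Cdh20, a cadherin of neural tissue, was at 138, 178 and 139 CPM in mNPC and 0.0974, 0.163 and 0.0447 CPM in mESC. In the matrix 15 of 44 genes were higher (34.1%) and 18 lower (40.9%), against the same 25.3% and 31.9%. Tnc, tenascin C of stem cell niches, rose from 2.17 ± 1.15 CPM to 543 ± 30.8 CPM, and Fn1, fibronectin, fell from 1220, 1039 and 1037 CPM to 22.6, 15.9 and 17.4 CPM. Of 36 neural and epithelial splicing regulators 10 were higher (27.8%, near the 25.3% of all genes) and 17 lower (47.2%, against 31.9%). Esrp1, the epithelial splicing factor, was at 143, 145 and 135 CPM in mESC with 1 count in mNPC, and Nova1, of neurons, was at 352 ± 38.6 CPM in mNPC and 22.2 ± 2.34 CPM in mESC. Ptbp2, the neural paralogue of Ptbp1, was higher at 331 ± 34.1 CPM against 123 ± 22.5 CPM, and Ptbp1 lower at 101 ± 7.17 CPM against 254 ± 39.4 CPM. These paralogues were picked because the study is known to treat them, so they add no independent support.

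Genes of synaptic adhesion and excitability were mostly higher in mNPC. Of 66 genes for synaptic adhesion, channels and other long neural proteins, 49 were higher and 10 lower (3 lower in TPM), with a median of 3.10. Gria2, an AMPA receptor subunit (chromosome 3, 80684936 to 80802791, - strand), was at 707, 825 and 754 CPM in mNPC and had 2 counts in mESC, a 25772-fold ratio with a counting interval of 7134 to 212820. Grm5, a metabotropic glutamate receptor, was at 160 ± 46.1 CPM against 0.423 ± 0.157 CPM. Not all receptors rose, since 11 of 34 AMPA, NMDA, kainate and GABA receptor genes were lower and 14 higher. The share lower (32.4%) was near the 31.9% of all genes, and the share higher was 41.2%, against 25.3%. Grin1, the obligatory NMDA subunit, was at 3.65 ± 0.385 CPM in mNPC and 55.8 ± 13.1 CPM in mESC. The sign of the median of this receptor list (-0.11) turned when mESC replicate 1 (0.19), mESC replicate 3 (0.07) or mNPC replicate 1 (0.06) was left out. It was 0.32 in TPM, with 12 higher and 2 lower, and 1.86 with the compared libraries fitted alone, where 25 of the genes were tested, 14 were higher and 7 lower. Among all protein-coding genes, 32.3% of the 3901 longest, which span 57869 bases or more, were higher, and 21.5% to 24.3% of the shorter groups of like size.

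Ribosomal protein genes were lower in mNPC chromatin almost as a whole. Of 78 genes for cytosolic ribosomal proteins 71 were lower in mNPC chromatin and none was higher, against 31.9% of all genes, with a median log2 fold change of -1.76. In the TPM values 63 were lower and 4 higher, and other count scalings gave 71 to 73 lower. Rpl4 (chromosome 9, 64173387 to 64178562, + strand) was at 151, 132 and 117 CPM in mNPC and 782, 734 and 696 CPM in mESC, a log2 fold change of -2.47 ± 0.14 (SE) with adjusted p = 8.48e-15. Its span holds intronic small nucleolar RNA genes of the same strand, so reads there can count for either. In cytoplasm the same 78 genes gave 3 lower and 2 higher, where 29.6% of all genes were lower and 29.8% higher, and in nucleoplasm 40 lower and 1 higher, where the shares were 32.8% and 24.5%. The difference between the chromatin and the cytoplasm comparison was itself called lower for 74 of the 78, against 17.7% of all genes, and for 70 to 76 over the alternatives. Rpl4 in cytoplasm was at 2141.5 ± 202 CPM in mNPC and 3293 ± 102 CPM in mESC, and the test of the difference gave -1.85 ± 0.19 (SE, log2) with adjusted p = 1.33e-08. Small nucleolar RNAs guide the modification of ribosomal RNA. Their genes had a median length of 90 bases, and only RNA above 200 nt was used. The reads therefore measure longer polyadenylated RNA across each locus, not the mature small RNA. Of 254 tested small nucleolar RNA loci 173 (68.1%) were lower and 8 higher, and 7 of 9 tested host genes were lower. Snhg12 went from 91.8, 213 and 200 CPM in mESC to 36.8, 37.1 and 25.2 CPM in mNPC. Most of these loci, 209 of 254, overlap another gene on the same strand, so reads there can count for either. Among pairs of such a locus with an overlapping gene of another class, 119 were lower in both and 37 were called in neither. In 22 pairs only the small RNA locus was lower, and in 25 only the overlapping gene.

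SR proteins and CLK kinases, splicing regulators whose own transcripts are often held in the nucleus with introns, were a list of 35 genes. In chromatin 9 of 35 were higher and 3 lower, with a median of 0.45, and the share of higher genes (25.7%) was near that of all genes (25.3%). With RLE size factors, DESeq2, at least 1 CPM in 3 libraries or no filter, 7 were higher and 5 lower, and in TPM 11 and 0. Clk1, a kinase that phosphorylates SR proteins, was at 663, 586 and 486 CPM in mNPC and 215, 214 and 307 CPM in mESC. Pnisr was at 1384, 1490 and 1469 CPM against 339, 355 and 414 CPM, a log2 fold change of 1.97 ± 0.18 (SE) with adjusted p = 1.60e-10. Both lay above the mESC libraries in every mNPC library, and 98.1% of called genes were separated in this way in one direction or the other. In cytoplasm Clk1 was at 48.0 ± 4.15 CPM in mNPC and 49.8 ± 17.4 CPM in mESC, and Pnisr at 48.2 ± 2.21 CPM and 42.2 ± 9 CPM. The difference between fractions was called higher for 17 of the 35 against cytoplasm, where 10.3% of all genes were, and for 21 against nucleoplasm, where 7.25% were. Under other scalings and filters these counts were 13 to 17 and 12 to 27. The first was 11 without mESC cytoplasm replicate 3, and the second was 10 without mESC nucleoplasm replicate 1 and 8 or 9 without mNPC nucleoplasm replicate 1 or 2. Without mESC replicate 3 the number lower in chromatin was 1 instead of 3, since Srsf2 and Srsf7 then fell short of the 2-fold limit.

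Most changes in chromatin were shared with the other fractions of the same lines, whose libraries may come from the same cultures. Of the 4616 genes higher in chromatin, 3658 (79.2%) were also higher in cytoplasm, which is 67.3% of the 5438 higher there, and 3559 (77.1%) in nucleoplasm, which is 79.7% of those there. Of the 5817 lower genes 4175 (71.8%) were lower in cytoplasm, 77.5% of the cytoplasmic list, and 4879 (83.9%) in nucleoplasm, 81.5% of that list. Opposite calls were few, with 27 genes higher in chromatin and lower in cytoplasm and 85 the other way. Examples, chosen after their values were seen, come from both directions. Snrnp70, a protein of the U1 splicing particle, was at 1395 ± 130 CPM in mNPC chromatin and 540 ± 72.3 CPM in mESC chromatin, but at 244 and 613 CPM on average in cytoplasm. Pabpn1, the nuclear poly(A)-binding protein, had log2 fold changes of 1.28 ± 0.19 (SE) in chromatin and -1.48 in cytoplasm. Selenot, a selenoprotein of the endoplasmic reticulum, had -1.34 ± 0.15 and 2.33.

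**Figure D4:**
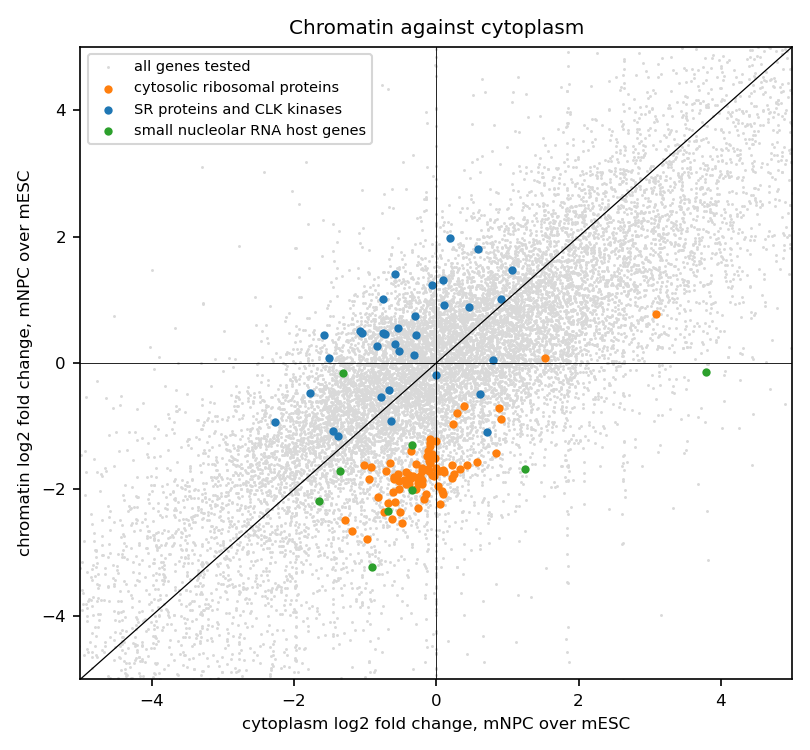
Log2 fold change of mNPC over mESC in cytoplasm (horizontal) against chromatin (vertical), with all genes tested in grey and 3 lists in colour, on axes that end at ±5.0 and leave out 3018 genes. Ribosomal protein genes gather near 0 on the horizontal axis and below 0 on the vertical axis.

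The size of the change differed between fractions for other genes. The difference between the chromatin and cytoplasm comparisons was called for 1878 genes in the higher and 3226 in the lower direction, and against nucleoplasm for 1321 and 1343 (7.25% and 7.37%). The last split depends on the scaling, with 745 and 2064 under RLE size factors and 2486 and 758 with library totals. Gabbr1, a GABA-B receptor subunit that the study is known to treat (chromosome 17, 37045966 to 37075067, + strand), is a case in which chromatin differed little and cytoplasm much. In chromatin it was at 399, 340 and 395 CPM in mNPC and 297, 298 and 371 CPM in mESC, a log2 fold change of 0.23 ± 0.16 (SE) with adjusted p = 0.177. In cytoplasm it was at 188, 146 and 171 CPM and 14.4, 14.3 and 16.9 CPM. The test of the difference gave -3.24 ± 0.23 (SE, log2) with adjusted p = 4.11e-11. In these fractions the same form was seen for Gas5, a host of small nucleolar RNAs, whose loci can share its reads. Gas5 was at 336 ± 43.9 CPM and 370 ± 120 CPM in chromatin but 236 ± 10.6 CPM and 17.1 ± 3.66 CPM in cytoplasm (difference -3.93 ± 0.25 (SE), adjusted p = 8.35e-12). In nucleoplasm these genes differed, with Gabbr1 at 418 ± 69.8 CPM in mNPC and 56.8 ± 16.1 CPM in mESC. Gas5 was at 142 ± 13.2 CPM and 119 ± 9.71 CPM there. Of 71 nuclear-encoded respiratory chain genes 17 (23.9%) were higher in chromatin and 35 in cytoplasm. The share of all genes called higher was 25.3% in chromatin, near that of the list, and 29.8% in cytoplasm. The chromatin number of the list was 8 under RLE size factors and 11 with library totals. Mitochondrially encoded mRNAs had a chromatin median of -0.05 that passed 0 when single libraries were left out, 3.04 in cytoplasm and 1.75 in nucleoplasm. The mitochondrial share of counts was 0.356% to 0.760% in mNPC and 0.523% to 0.724% in mESC chromatin.

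Glycolysis genes were mostly lower in mNPC. Of 23 such genes 15 were lower (65.2%) and 4 higher (17.4%), against 31.9% and 25.3% of all genes. Pfkp, the platelet form of phosphofructokinase, was at 43.9, 43.4 and 46.9 CPM against 1018, 973 and 1213 CPM, while Pfkm, the muscle form, was at 149 ± 12.8 CPM against 39.4 ± 15.4 CPM, so the isoform genes moved in opposite directions. The glucose transporter Slc2a3 fell from 570, 454 and 599 CPM to 12.8, 10.9 and 11 CPM, with a log2 fold change of -5.55 ± 0.16 (SE). Of 40 mitosis and proliferation genes 12 were lower and 6 higher, and their share of lower genes (30%) was near the 31.9% of all genes. Mycn and the replication helicase subunit Mcm5 fell by 4.39 ± 0.31 and by 2.84 ± 0.22 on the log2 scale, and the cell cycle inhibitors Cdkn2c and Cdkn1b rose by 6.41 ± 0.20 and 2.27 ± 0.15.

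Chromosomes 11 and 8 had lower median fold changes than the other autosomes, as a description with no test. The median log2 fold change was -0.81 over 1541 genes of chromosome 11 and -0.62 over 935 of chromosome 8, and it lay between -0.31 and 0.17 on the other autosomes. On chromosome 11, 45% of genes were lower and 16.2% higher, and on chromosome 8 39.8% and 17.2%. The medians were -0.66 and -0.40 in cytoplasm and -0.85 and -0.69 in nucleoplasm. In TPM they were -0.32 and -0.22. The lower values did not run along the whole of chromosome 8. In 4 groups of genes of like number, ordered by position, its medians were -0.16, -0.56, -0.85 and -0.94, the first of them near the -0.14 of all genes. Those of chromosome 11 were -0.77, -0.85, -1.07 and -0.60. Leaving out single chromatin libraries gave -0.85 to -0.75 for chromosome 11 and -0.70 to -0.54 for chromosome 8. Among protein-coding genes with a mean of at least 10 CPM the medians were -0.58 over 856 genes and -0.45 over 574, against 0.06 over all 10147. Chromosome 11 took 8.13%, 8.06% and 8.01% of counts in the mNPC chromatin libraries, 11.9%, 12.2% and 12.2% in mESC, and 8.20%, 8.31% and 8.23% in cortical neurons. Chromosome 8 took 5.83%, 5.71% and 5.97% in mNPC, 7.08%, 7.03% and 7.14% in mESC, and 5.71%, 5.82% and 5.73% in neurons. For both chromosomes the mESC libraries were therefore the ones that stood apart, and mNPC and neurons had similar shares. The number of chromosome copies was not measured, and its part in these values was not tested.

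**Figure D5:**
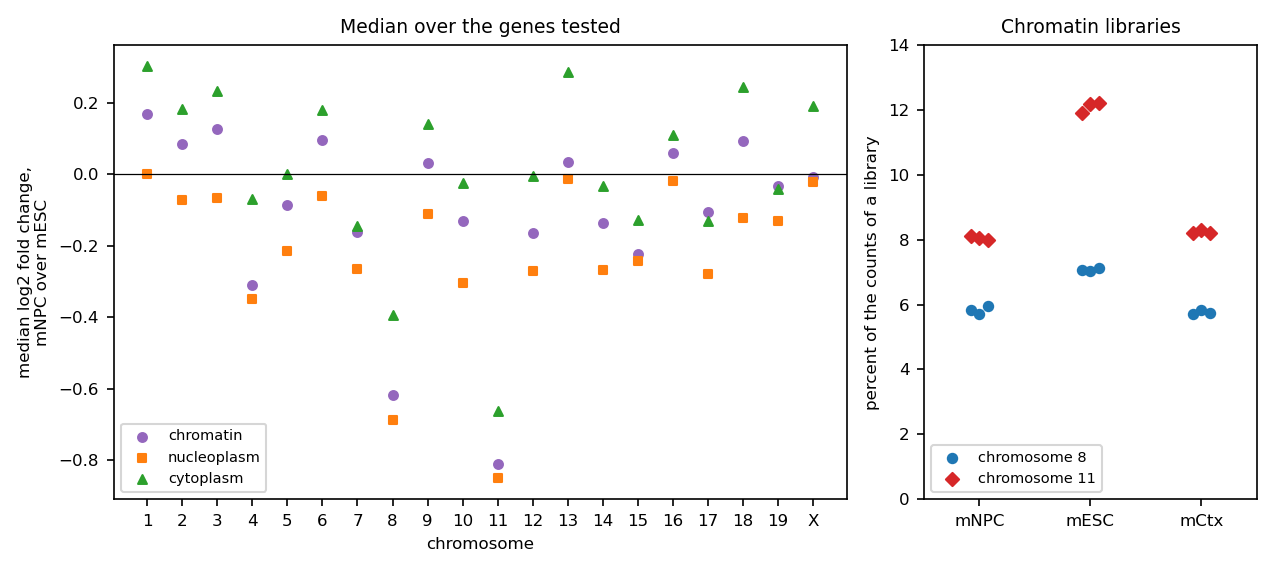
Left, median log2 fold change of mNPC over mESC for the genes of each chromosome in chromatin, nucleoplasm and cytoplasm. Right, percent of the counts of each chromatin library on chromosomes 8 and 11 for mNPC, mESC and cortical neurons (mCtx), 3 libraries each. Chromosomes 8 and 11 have the lowest medians in all 3 fractions, and the mESC libraries have the highest shares of counts on both.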

How the data were processed

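Polyadenylated RNA over 200 nt was sequenced from 27 libraries, 3 for each of 9 groups of cell type and fraction. The nucleoplasm and cytoplasm columns used here are read counts per gene, deposited by the authors, per the file headers. The deposited chromatin columns belong to the same count table and hold whole-number values that are read counts too, and counts are how they were analysed. The TPM values per gene were deposited by the authors, per the file headers. STAR, featureCounts and kallisto 0.43.0 with build mm10 were used, per the submitters' processing notes. Counting options, strand setting and annotation release were not found in the labels or headers. The deposited gene length equals the span from start to end for all 37332 genes, so introns lie inside the counted region, and overlapping genes of a strand share reads.

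The test of counts was that of edgeR 4.0.16 (R 4.3.3). filterByExpr on the 9 groups kept 18226 genes, libraries were scaled by TMM, and a quasi-likelihood model with 1 mean for each group, fitted to the 27 libraries, gave the contrasts by the F-test, with Benjamini-Hochberg adjustment over all genes tested. A gene was called at an adjusted p under 0.05 and a log2 fold change of at least 1 in size. "Rose", "fell", "higher" and "lower" mean called. The SE is the size of the log2 fold change divided by the square root of F. Levels are CPM as mean ± SD of 3 libraries. Folds against a group with no count use 3 counts over the group as its floor, and those against 1 to 3 counts carry an exact 95% counting interval, and both cover counting error only. Such fitted log2 fold changes depend on the prior count. P-values rest on the spread between replicates within groups, estimated for each gene over all 9 groups, and not on a spread between lines. The wider spread of the mESC chromatin replicates has no estimate of its own.

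Members and the 38 gene lists were chosen with earlier results of these data known, and the lists get counts and medians but no test. Named genes are the 15 called genes in each direction that changed most at a mean of at least 10 CPM, the 3 members of each list with the highest mean CPM, the 3 called members per direction that changed most at 5 CPM or more, all Notch, Y-linked, X-linked and DNA methylation genes, and 6 per direction for each difference between fractions. Nanog, Esrrb, Sox2, Pax6, Emx1, Nes, Vim, Gfap, Rbfox3, Neat1, Jam2, Mir9-2, Mirlet7b, Mir290a, Clk1, Snrnp70, Pabpn1 and Selenot fall outside that rule and were chosen after their values were seen. Not every gene the rule names is printed, and some are not reported here. Symbols were found for 35533 genes in GENCODE M21, coordinates are those of the count table, and sequences are RefSeq GRCm38.p6, where 18 of 24 tested microRNA loci matched a mature sequence.

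Alternatives were RLE size factors, library totals, DESeq2 1.42.0, a minimum of 1 CPM in 3 libraries, no filter, the compared libraries fitted alone, blocks for replicate number or culture, no minimum fold change, the data without mitochondrial, Xist and Y-linked genes, limma-trend (limma 3.58.1) on log2(TPM + 1), and leaving out each library. The script was tested on simulated data. Deviations of same-numbered mNPC and mESC chromatin libraries from their group means had correlations between -0.011 and 0.011, so the numbers do not pair the lines. Between chromatin and the other fractions of a line, same-numbered libraries had correlations of 0.31 to 0.72 in mESC and 0.03 to 0.25 in mNPC. The printed tests of differences between fractions used no block for the culture.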

Additional observations from a re-analysis of the deposited data

Results flagged for a closer look

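For 24 differences the change between mNPC and mESC was tested to differ between chromatin and another fraction of the same lines. Values are the log2 change in chromatin less that in the other fraction, with SE and edgeR adjusted p.

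Against cytoplasm, genes that fell less in chromatin were Ifitm1, an interferon-induced membrane protein (7.50 ± 1.01, adjusted p = 1.22e-06), Lin28a, the let-7 inhibitor (5.60 ± 0.75, adjusted p = 1.14e-06), Isyna1, of inositol synthesis (5.49 ± 0.70, adjusted p = 6.19e-07), and Sox15, a stem cell Sox factor (5.65 ± 0.95, adjusted p = 4.56e-05). Eras, a Ras-like gene of stem cells, had 6.42 ± 2.44 (adjusted p = 0.0395) and Bhlha15 5.43 ± 2.05 (adjusted p = 0.0366). Lin28a had 33 counts in mNPC chromatin, 5 in mNPC cytoplasm and 22136 in mESC cytoplasm, and Eras and Bhlha15 had no count in mNPC cytoplasm. In the other direction, Slc35f1 had -5.68 ± 0.37 (adjusted p = 1.10e-11), with 8.98 and 2.82 CPM in mNPC and mESC chromatin and 31.2 and 0.183 CPM in cytoplasm. Chrdl1, a secreted BMP antagonist, had -7.06 ± 0.92 (adjusted p = 1.23e-06) and Nkain3 -6.74 ± 1.00 (adjusted p = 7.27e-06), and both had no count in mESC cytoplasm. Kcnk6, a potassium channel, had -6.81 ± 1.05 (adjusted p = 1.18e-05), Igsf1 -6.74 ± 1.76 (adjusted p = 0.00326) and Serpinf1 -5.62 ± 0.73 (adjusted p = 7.36e-07), and these had 0, 0 and 1 counts in mNPC chromatin.

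Against nucleoplasm, Ifi30, a lysosomal thiol reductase, had 5.71 ± 0.43 (adjusted p = 2.91e-09), with 15.5 and 34.1 CPM in mNPC and mESC chromatin and 1.76 and 212 CPM in nucleoplasm. Ifitm1 had 5.99 ± 0.97 (adjusted p = 4.70e-05) with 2 counts in mNPC nucleoplasm. Sox15 (6.14 ± 1.39, adjusted p = 0.00212), Tgm1 (6.17 ± 2.14, adjusted p = 0.0352), Bmp8b (5.50 ± 1.49, adjusted p = 0.0077) and Mpzl2 (5.49 ± 1.74, adjusted p = 0.0223) had no count in mNPC nucleoplasm. In the other direction, Slc25a18, a mitochondrial glutamate carrier, had -3.99 ± 0.55 (adjusted p = 5.84e-06) and Negr1, a neuronal adhesion protein, -4.78 ± 0.54 (adjusted p = 4.43e-07). Kcnk6 had -5.84 ± 0.97 (adjusted p = 8.10e-05) and Angpt1 -3.95 ± 1.00 (adjusted p = 0.00458). Tnr, tenascin R, had -6.31 ± 1.75 (adjusted p = 0.00972) and Slitrk3 -4.08 ± 1.44 (adjusted p = 0.0465), and both had no count in mESC nucleoplasm. A fitted difference in which a group has 0 to 9 counts depends on the prior count and gives a direction more than a size.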

How the results depend on the processing

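The count of called genes in chromatin (10433) lay between 9416 and 14135 over its alternatives, and with each library left out in turn it was 10428 to 10652. Like totals do not mean the same genes. Of the 10433, 7091 were shared with the 10799 calls in TPM, and 9292 to 10433 with the other alternatives. The calls in TPM came from 36074 genes tested, against 18226 as designed, so those totals are not shares of the same set. The share of calls that were higher was 44.2% as designed, and 39.7% without a filter, 40.1% with RLE size factors and 50.3% in TPM. A block for the replicate number gave 10458, and a block for the culture gave 5456 calls for the difference from cytoplasm and 3163 for that from nucleoplasm (5104 and 2664 without a block). With libraries left out these differences were 4724 to 5400 and 2424 to 3411. With no minimum fold change the difference from nucleoplasm had 4804 calls. Its split into 1321 higher and 1343 lower was 595 and 2713 without mESC nucleoplasm replicate 1, and 501 and 2050, 534 and 2185, or 725 and 2686 without one of the mNPC nucleoplasm libraries. Of 337 named genes, 297 had the same call in every alternative and 21 of the other 40 changed only in TPM. In TPM the log2 fold changes of Fgfr2 (2.52), mt-Nd6 (0.11) and Grin2d (0.36) reversed, and their cause was not tested. Of 76 list counts 52 stayed within 1.5 times. Depth limits genes whose level in a line is a few counts, for which only a bound or an interval is given.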
